A study of Mus musculus with 6 samples.

Results

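The cytosolic ribosomal protein genes were taken from the deposited gene table by name: a protein-coding gene with the prefix Rpl or Rps, a number and at most one of the letters a, x or l, together with Rplp0, Rplp1, Rplp2 and Rpsa. This rule took 80 of 54532 genes, 49 with large subunit names and 31 with small subunit names, and none of the measured values entered it. The study asked how loss of SRSF1, a splicing factor, in oocytes alters the fetal ovary, and RNA was sequenced from whole C57BL/6 mouse ovaries at 16.5 days post-coitus. The control (Ctrl) group of 3 libraries is labelled wild type. The cKO group of 3 libraries came from Stra8-GFPCre; Srsf1 Fl/Fl mice, in which Cre under the Stra8 promoter removes exons 2, 3 and 4 of Srsf1 from germ cells entering meiosis, so the somatic cells of the cKO ovary keep the gene. The sources used here do not say how many animals made up a library, and the p-values measure the spread between these libraries.

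Each cytosolic ribosome carries one copy of nearly every ribosomal protein, spread over a small subunit that reads the mRNA and a large subunit that joins amino acids. The mRNAs of these proteins are among the most abundant of a growing cell, and many begin with a C followed by a run of pyrimidines, the terminal oligopyrimidine (TOP) element through which their translation is switched by mTOR and LARP1. Processed pseudogenes of ribosomal protein mRNAs are scattered over the mouse genome in large numbers, so a read from one of these genes often matches several places.

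The start sites of a few members are printed to show this element. RefSeq promoters (GRCm38.p6) were matched by symbol for 60 of the 80 genes, and each line below is a window of 30 bases, with 15 bases before the annotated start and 15 from it. Capitals mark a run from the first C within 5 bases of the start that at least 4 C or T follow. Pyrimidines before that C are left in small letters, as for Rpl34.
Rpl18, chr7:45718056-45718085, plus strand: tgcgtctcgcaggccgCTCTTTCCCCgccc
Rps18, chr17:33955651-33955680, minus strand: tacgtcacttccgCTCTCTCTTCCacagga
Rps6, chr4:86857353-86857382, minus strand: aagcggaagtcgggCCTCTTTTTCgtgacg
Rps27, chr3:90213634-90213663, minus strand: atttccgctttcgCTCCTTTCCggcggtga
Rpl34, chr3:130730323-130730352, minus strand: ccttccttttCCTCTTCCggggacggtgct
Rpl38, chr11:114668565-114668594, plus strand: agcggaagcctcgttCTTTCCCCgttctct
Rplp0, chr5:115559452-115559481, plus strand: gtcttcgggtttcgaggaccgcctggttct
Rps4x, chrX:102189377-102189406, minus strand: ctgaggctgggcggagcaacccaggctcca

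Such a run was present in 26 of the 60 windows (43.3%), against 18.3% of all 32851 RefSeq promoters of the same length. Counted from the C near the start, its length was 5 to 20 bases, with a median of 8.5. Rplp0 and Rps4x, both among the most abundant members, are shown as windows without it. Over the whole promoters, from 250 bases before the start to 50 after it and on both strands, the letters CTTTCC, which can lie inside the run, occurred in 51.7% of the matched members and in 26.6% of all promoters. CCGGAAG, the core of the ETS family motif, occurred in 40.0% and 8.86%. GGGCGG, the core of the Sp1 motif, occurred in 58.3% and 35.7%, and TATAA occurred in 26.7% and 24.9%. These are matches of letters and depend on where RefSeq places each start.

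The libraries held 14212164 to 16784241 reads on genes, recovered as whole numbers from the deposited FPKM values (fragments scaled by the length of the gene model and the size of the library). Srsf1 was 80.2, 70.1 and 63.1 FPKM in Ctrl and 32.4, 37.0 and 36.4 FPKM in cKO, and the groups did not overlap. The difference was -0.99 ± 0.13 (SE) on the log2 scale (limma p = 0.000158, adjusted p = 0.497; exact permutation p = 0.1, the smallest that 3 libraries against 3 allow). The germ-cell markers Ddx4 and Sycp3 and the pregranulosa marker Foxl2 were present in every library. The summed level of the 4 germ-cell markers Ddx4, Dazl, Sycp3 and Dppa3 was 66.1, 130.003 and 241 FPKM in Ctrl and 313, 118 and 398 FPKM in cKO. All 4 had a log2 difference above 0, with a median of 0.91, and 2 of them, Dazl and Dppa3, were higher in cKO at an unadjusted p below 0.05. The 6 red blood cell markers summed to 4847 to 22971 FPKM in Ctrl and 1598 to 10388 FPKM in cKO, with 6 log2 differences below 0, a median of -0.85 and 0 past the test. All 6 were lowest in cKO 1, and without that library their median log2 difference was 0.05. The part of these shifts in the results on ribosomal protein genes was not tested. Because whole ovaries were sequenced, fewer cells of a type and less RNA per cell cannot be told apart.

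Ribosomal protein genes were abundant in both groups. In the control libraries 1 to 3 they took 4.73%, 5.08% and 4.88% of all reads, and the cKO libraries gave 4.95%, 5.12% and 4.32%. The groups overlapped, and cKO 3 was the lowest library. As a share of summed FPKM the members took 8.58%, 10.02% and 9.27% in Ctrl and 9.57%, 9.44% and 8.47% in cKO, again with overlap. Large subunit genes took 2.37% to 2.99% of reads and small subunit genes 1.95% to 2.15%. Of the 100 genes with the highest mean FPKM, 45 were members. The median member had a mean level of 299 FPKM over the 6 libraries, against 5.97 FPKM for the median of all 17180 genes tested, and 69 of the 80 had a mean above 100 FPKM.

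**Figure D1:**
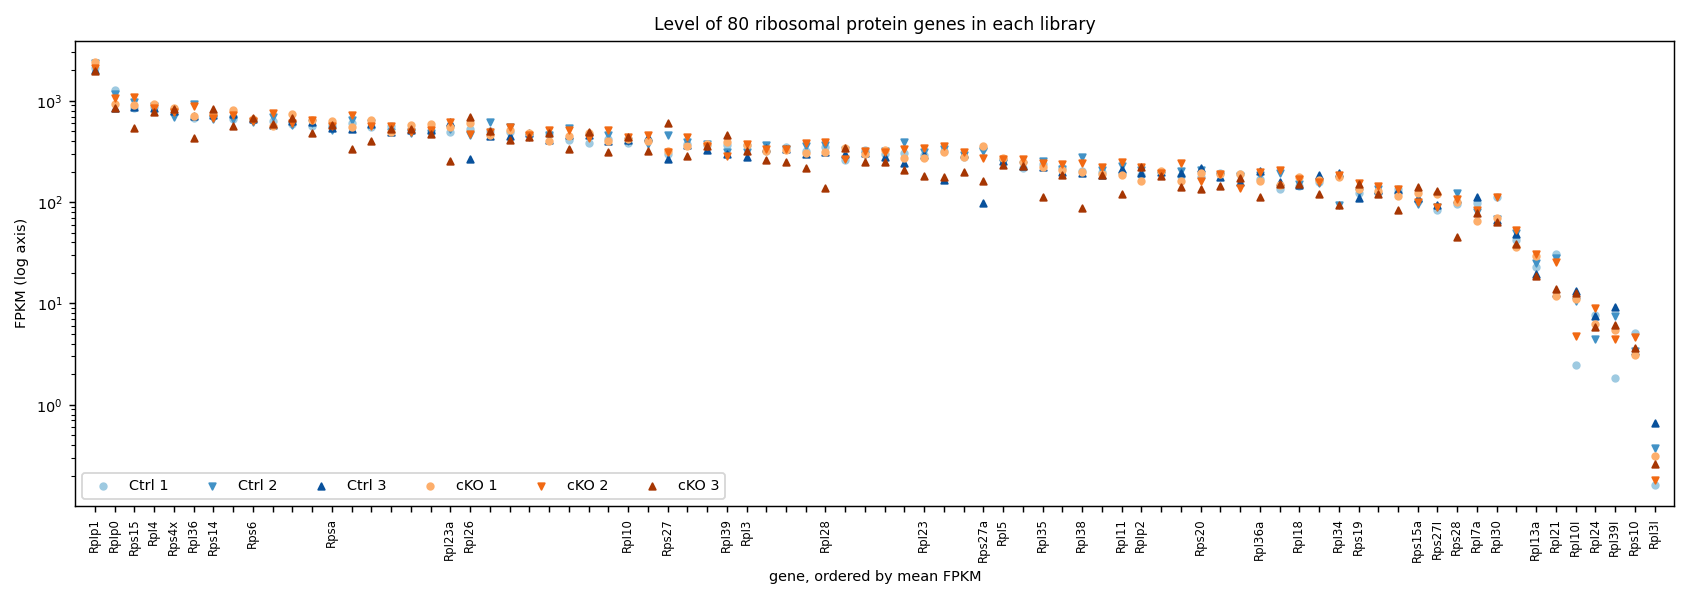
FPKM of the 80 ribosomal protein genes (log axis) in each of the 6 libraries, ordered by mean level, with the genes chosen for naming labelled, Ctrl in blues and cKO in oranges. By mean level 69 of the 80 genes lie above 100 FPKM and 7 below 25 FPKM, and the dark cKO 3 triangles often form the lower edge.

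The stalk proteins of the large subunit, which recruit elongation factors, spanned a wide range. Rplp1 was the most abundant member, at 2127, 2377 and 2026 FPKM in Ctrl and 2424, 2109 and 1961 FPKM in cKO. Rplp0, which anchors the stalk to the ribosome, was at 1269.6, 1156 and 858 FPKM in Ctrl and 929, 1067 and 858 FPKM in cKO. Rplp2, the partner of Rplp1, was far lower, at 183, 206 and 192 FPKM in Ctrl and 161, 223 and 220.1 FPKM in cKO. In none of these genes were the groups separate, and the log2 differences were -0.01 ± 0.18, -0.19 ± 0.20 and 0.04 ± 0.17 (SE), none of them past the test. The gene model by which FPKM are divided is 499 bases for Rplp1, equal to its mRNA, and 2072 bases for Rplp2, 2.15 times its mRNA. Over all members the gene model was 1.0 to 7.18 times the length of the main mRNA, with a median of 2.02. Multiplying each level by this ratio reduced the range among the 73 members above 25 FPKM from 48.7-fold to 15.9-fold.

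Other members with the highest levels were Rps15, Rpl4 and Rps4x. Rpl4, a large subunit protein that lines the exit tunnel, was at 861, 893 and 855 FPKM in Ctrl and 938, 843 and 783 FPKM in cKO. Rps4x, an X-linked small subunit gene, was at 824, 699 and 796 FPKM in Ctrl and 843, 769.7 and 830.4 FPKM in cKO. Rps15, which lies in the head of the small subunit, was at 855, 969 and 866 FPKM in Ctrl and 902, 1089 and 537 FPKM in cKO. For Rpl4 and Rps4x the 6 libraries were within a narrow band, whereas Rps15 had a single low library, cKO 3. Rpsa, a small subunit protein also known as the laminin receptor, was at 516 to 572 FPKM in Ctrl and 558 to 638 FPKM in cKO.

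At the low end, Rpl3l, a paralogue of Rpl3 known from striated muscle, averaged 0.326 FPKM and was below the minimum of 0.5 for testing, so 79 members were tested. The 4 muscle markers Myh6, Ttn, Acta1 and Ckm together summed to 0.565 to 1.22 FPKM in each library, and 1 of them reached the minimum for testing. Rps10, Rpl39l, Rpl24 and Rpl10l followed with means under 10 FPKM. Rpl39l and Rpl10l are paralogues known from male germ cells, but Rps10 and Rpl24 encode proteins found in every ribosome. Rps10, a small subunit protein near the mRNA entry site, was at 3.39 to 5.08 FPKM in Ctrl and 3.08 to 4.69 FPKM in cKO. Rpl24, a large subunit protein that forms a bridge between the subunits, was at 4.44 to 7.70 FPKM in Ctrl and 5.81 to 8.97 FPKM in cKO.

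The low levels of these genes coincided with other gene models on the same sequence. In the annotation, 47.0% of the exon bases of Rpl24 were shared on the same strand with Gm28037 and 20.6% of those of Rps10 with the read-through model RPS10-NUDT3. Rpl13a, often used as a reference gene in quantitative PCR, was at 19.7 to 24.8 FPKM in Ctrl and 18.9 to 31.0 FPKM in cKO, and 35.4% of its exon bases were shared. The overlapping models Gm28037, RPS10-NUDT3 and, for Rpl13a, Gm45713 were listed at 0 reads in all 6 libraries. Rps10-ps2, a processed pseudogene on chromosome 16 whose sequence matches 99.0% of 496 aligned coding bases of Rps10, held 2434 to 3893 reads where Rps10 itself held 110 to 182. The values listed for Rps10, Rpl24 and Rpl13a are therefore uncertain as levels of their mRNAs, and the part of these overlaps in them was not tested.

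Few of the members differed in level between cKO and Ctrl. Of the 79 tested, 1 was higher and 0 were lower in cKO at an unadjusted p below 0.05 (limma on log2(FPKM + 1), two-sided), which is 1.27% of them, beside a background of 4.43% over all 17180 genes (2.68% higher and 1.75% lower). No member passed an adjusted p below 0.05, the smallest adjusted p among them being 0.978, and 0 of all genes tested did so. Limma voom on the recovered reads likewise gave 1 member higher and 0 lower, beside 4.03% of all genes in either direction. Log2 fold changes were above 0 for 35 members and below 0 for 44, with a median of -0.02, beside a median of -0.01 for all genes tested. The medians of the large and small subunit genes were -0.02 and -0.01. The 95% interval of the difference lay within 2-fold in either direction for 68 of the 79 and within 1.5-fold for 43, and for the others it reached beyond these sizes. The median distance from the estimate to either end of the interval was 0.42 on the log2 scale. The groups were separate for 3 members, Rps19, Rpl10 and Rpl18, all higher in cKO, beside 8.68% of all genes tested (4.59% with cKO higher and 4.1% with cKO lower).

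**Figure D2:**
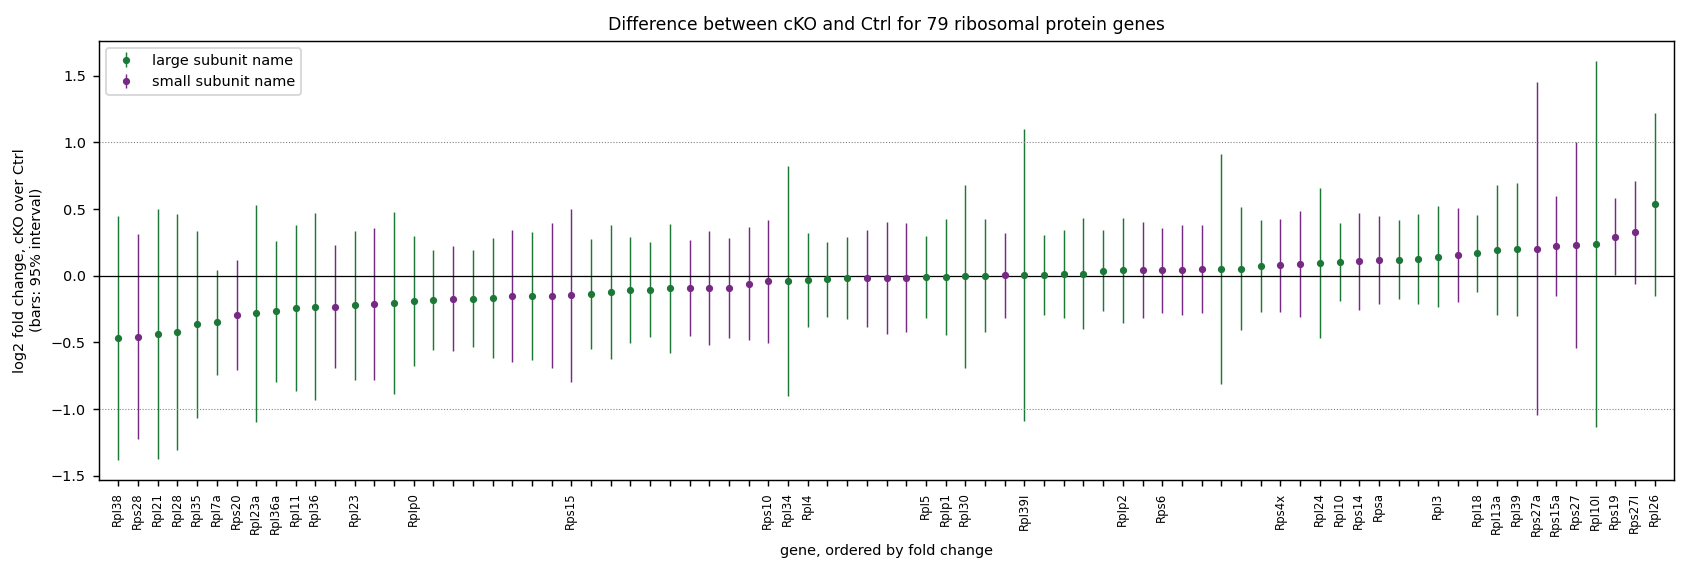
Log2 fold change of cKO over Ctrl for the 79 ribosomal protein genes tested, ordered by size, with the same genes labelled, 95% intervals from limma and large and small subunit names in green and purple. The points run from -0.47 for Rpl38 to 0.53 for Rpl26, and the interval of Rps19 alone does not reach 0.

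Rps19, a small subunit protein needed for 18S rRNA maturation and mutated in Diamond-Blackfan anaemia, was the member called. It was at 123, 127 and 111 FPKM in Ctrl and 136, 154 and 153 FPKM in cKO. Every cKO library was above every Ctrl library, and the log2 difference was 0.29 ± 0.12 (SE; limma p = 0.0481, adjusted p = 0.978; exact permutation p = 0.1). The call was lost on leaving out any one of the 6 libraries, while the difference stayed between 0.24 and 0.35. It was also lost with no minimum FPKM, without the intensity trend and, at a difference of 0.24, with the reads of its copies added.

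The other members named for the smallest p in each direction did not pass the test, since fewer than 5 did in either. On the higher side these were Rps27l, Rpl26, Rps15a and Rpl18, with log2 differences of 0.33, 0.53, 0.22 and 0.17 and limma p of 0.085, 0.108, 0.202 and 0.205 (exact permutation p of 0.2, 0.2, 0.3 and 0.1). Rpl18, a large subunit protein, was nearly constant in Ctrl (146, 149 and 146 FPKM) and at 177, 171 and 149.8 FPKM in cKO, where the lowest library was barely above the highest of Ctrl. Rps15a, a small subunit protein, was at 96.4 to 111 FPKM in Ctrl and at 123, 100.2 and 142 FPKM in cKO, and without cKO 2 its difference was 0.36 and passed an unadjusted p below 0.05, as 14.5% of all genes did in that setting. On the lower side were Rpl7a, Rps20, Rps28, Rpl35 and Rpl38, with log2 differences of -0.35, -0.30, -0.46, -0.36 and -0.47 and limma p of 0.0745, 0.132, 0.202, 0.259 and 0.267 (exact permutation p of 0.2, 0.2, 0.4, 0.5 and 0.5). Rpl7a, a large subunit protein of the L7Ae family, was at 97.8, 80.5 and 112 FPKM in Ctrl and 65.0, 82.9 and 78.3 FPKM in cKO. The groups overlapped, since cKO 2 was above Ctrl 2, and without Ctrl 2 the difference was -0.47 and passed an unadjusted p below 0.05, beside 2.12% of all genes. The paper lists a retained intron of Rpl7a among its altered splicing events, which a gene level in FPKM cannot show.

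The members with roles outside the ribosome or in common assays did not pass the test, apart from Rps19. Rpl5 and Rpl11, which form the 5S ribonucleoprotein that binds MDM2 when ribosome assembly fails, were at 244 to 269 and 193 to 226 FPKM in Ctrl. In cKO they were at 229.9 to 270.3 FPKM and at 186, 249.9 and 120.3 FPKM, with Rpl11 low in cKO 3. Rpl23, another MDM2 binder, showed the same library as the lowest, at 289.7, 315 and 291 FPKM in Ctrl and 271, 340.2 and 181 FPKM in cKO. Rps6, the S6 kinase substrate whose phosphorylation is read as mTOR activity, was among the steadiest members, at 642, 615 and 660.3 FPKM in Ctrl and 666, 629 and 677 FPKM in cKO. The log2 difference of Rps6 was 0.04, with a 95% interval of -0.28 to 0.36. Rps14, a small subunit protein, was at 655 to 719 FPKM in Ctrl and 669.7 to 839 FPKM in cKO.

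The X-linked members were Rpl10, Rpl36a, Rpl39 and Rps4x. Rpl10, which joins the large subunit late in its maturation, was at 388, 405 and 410 FPKM in Ctrl and 418, 434 and 439 FPKM in cKO. The groups did not overlap, yet the log2 difference was 0.10 ± 0.12 (SE; limma p = 0.437, exact permutation p = 0.1). Rpl39, a small protein of the exit tunnel, was at 369, 310.03 and 297 FPKM in Ctrl and 395, 283 and 459 FPKM in cKO. Rpl36a was at 168, 185 and 203 FPKM in Ctrl and 160.1, 200.4 and 112 FPKM in cKO. For both genes the groups overlapped, with cKO 3 the highest library for Rpl39 and the lowest for Rpl36a.

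The library cKO 3 stood apart for these genes. Of the 79 members tested, 43 (54.4%) had their lowest level in cKO 3, beside 22.8% of all genes tested, 37.5% of the 264 other genes above 100 FPKM and 39.0% of the 77 mitochondrial ribosomal protein genes tested. The median log2 ratio of cKO 3 to the mean of the other libraries was -0.23 for the members, -0.12 for the other genes above 100 FPKM, -0.09 for mitochondrial ribosomal protein genes and -0.04 for all genes. The tested genes for elongation and poly(A) binding with TOP mRNAs were similar to the members in this count, with 9 of the 15 lowest in cKO 3 and a median ratio of -0.16. In cKO 2 the median was 0.16 for the members, 0.12 for the other genes above 100 FPKM, 0.15 for mitochondrial ribosomal protein genes and -0.02 for all genes. There 30 of the 79 members had their highest level, beside 103 of the 264 other genes above 100 FPKM and 37 of the 77 mitochondrial ribosomal protein genes. For all 17180 genes tested the count was 3838. The 17 members more than 1.5-fold below the other libraries in cKO 3 comprised 12 large and 5 small subunit genes, against 1 to 5 such members in each other library. No count at this limit over all genes is given beside them. The SD between libraries was larger in cKO than in Ctrl for 61 members (77.2%), beside 61.1% of all genes tested, and its median was 17.2% of the mean in cKO and 7.61% in Ctrl. These 17 genes, Rps7 and the comparison with other genes above 100 FPKM were singled out after their values were seen.

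**Figure D3:**
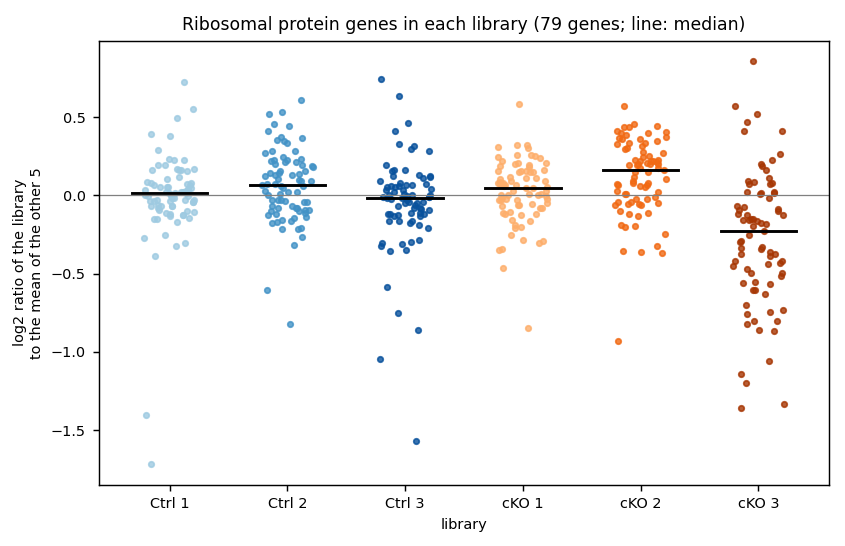
Log2 ratio of each library to the mean of the other 5 for the 79 ribosomal protein genes tested, one point per gene, with the median as a black line. The medians lie between -0.02 and 0.16 in 5 libraries and at -0.23 in cKO 3, where the points also spread the furthest downward as a group.

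Rpl38, a large subunit protein known for its part in translating Hox mRNAs, was the lowest of them, at 202, 282 and 192 FPKM in Ctrl and 197, 242 and 86.5 FPKM in cKO. Rpl28 was at 348, 366 and 316 FPKM in Ctrl and 311, 389.8 and 136 FPKM in cKO. Rps28, a small subunit protein at the mRNA exit, was at 94.9, 124 and 108 FPKM in Ctrl and 99.4, 106 and 45.8 FPKM in cKO. Rpl23a, which lies at the mouth of the exit tunnel, was at 488, 521 and 611 FPKM in Ctrl and 554, 619 and 253 FPKM in cKO. Rpl35, its neighbour at the tunnel mouth, was at 236, 253 and 220.3 FPKM in Ctrl and 224, 244 and 112 FPKM in cKO. In all of these cKO 1 and cKO 2 lay close to the Ctrl libraries and cKO 3 alone was low. Without cKO 3 the median log2 fold change of the members was 0.05, and with all libraries it was -0.02. The other genes above 100 FPKM moved alike, from -0.007 to 0.058, and mitochondrial ribosomal protein genes from -0.002 to 0.054. For all genes tested the median went from -0.009 to 0.010. Other members were not low in that library. Rps27 and Rpl26 were at 598 and 694 FPKM in cKO 3, the highest values of both, and Rps6 and Rps7 were within 0.08 of the mean of the other libraries on the log2 scale. The share of mitochondrial transcripts was 3.06% of reads in cKO 3 and 2.06% to 2.81% elsewhere, and its part in the result was not tested.

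Members with and without the pyrimidine run at the start had like medians, a difference that was not tested. The 26 genes with it had a median log2 fold change of -0.02 and the 33 tested genes with a window lacking it -0.02, and Rps19, the member called, was among those lacking it, at a RefSeq start 221 bases from that of GENCODE. The medians of the log2 ratio of cKO 3 to the other libraries were -0.23 and -0.20. Among the genes printed above, Rpl38 was low in cKO 3, Rps27 was high and Rps6 was steady, and all have the run.

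For several members the reads of a near-identical copy elsewhere in the genome were high in the libraries where the member was low. Copies were defined as genes that share at least one stretch of 100 bases with a member's main mRNA and whose model is at most 1.5 times its length. Other members and genes overlapping the member's exons were left out. A copy matching several members was counted with the member sharing the most stretches. Of the 80 members, 70 had at least 1 copy, with 443 copies in all, of which 423 are annotated as pseudogenes. The lines below show the bases that distinguish 3 members from such a copy. Each window of 41 coding bases is centred on a mismatch in capitals, positions are counted from the A of the start codon, and the token gives the member's base first.
Rpl26, C177T: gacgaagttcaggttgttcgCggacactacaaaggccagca
Gm15772, C177T: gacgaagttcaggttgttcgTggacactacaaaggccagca
Rpl26, T288C: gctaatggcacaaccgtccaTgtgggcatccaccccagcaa
Gm15772, T288C: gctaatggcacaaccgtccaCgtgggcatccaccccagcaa
Rpl34, T132C: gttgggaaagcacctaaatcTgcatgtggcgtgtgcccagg
Rpl34-ps1, T132C: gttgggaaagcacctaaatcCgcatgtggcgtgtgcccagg
Rpl34, C318G: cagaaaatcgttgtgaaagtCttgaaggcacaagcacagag
Rpl34-ps1, C318G: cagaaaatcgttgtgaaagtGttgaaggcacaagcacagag
Rpl30, G96A: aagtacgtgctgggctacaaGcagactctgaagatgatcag
Gm12191, G96A: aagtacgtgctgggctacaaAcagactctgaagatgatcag

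The sequences are those of the GENCODE M21 transcripts (GRCm38). Rpl26 (chr11:68901583-68906989, plus strand) and the processed pseudogene Gm15772 (chr5:3236431-3236868, plus strand) differ at 2 of 438 coding bases. Rpl34 (chr3:130726831-130730398, minus strand) and Rpl34-ps1 (chr6:71124610-71124963, plus strand) differ at 2 of 354. Rpl30 (chr15:34440505-34443640, minus strand) and Gm12191 (chr11:49678710-49679057, minus strand) differ at 1 of 348. Rps27 and Rps27rt, a protein-coding gene on chromosome 9, are identical over all 255 coding bases. These pairs were singled out after their values were seen.

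Rpl26, which also binds p53 mRNA, had the largest positive log2 fold change among the members. It held 11352, 10809 and 6732 reads in Ctrl and 13524, 11371 and 14225 in cKO, with Ctrl 3 the low library. Gm15772 held 490, 622 and 9196 reads in Ctrl and 640, 543 and 529 in cKO, with Ctrl 3 the high library. With the reads of all its copies added, the ratio of the highest to the lowest library of Rpl26 (reads relative to all reads of the library) went from 2.49 to 1.47 and its log2 difference from 0.53 to 0.14. Neither difference passed the test.

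Rpl34, a large subunit protein, held 7207, 4012 and 8993 reads in Ctrl and 7221, 8138 and 3553 in cKO. Rpl34-ps1 held 137, 3837 and 226 reads in Ctrl and 191, 211 and 3850 in cKO. The libraries Ctrl 2 and cKO 3, one of each group, were low for the gene and high for the pseudogene. With copies added the ratio of highest to lowest library went from 2.15 to 1.17.

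Rps27, a small subunit protein, held 4649, 7762 and 4802 reads in Ctrl and 5103, 5421 and 8860 in cKO. Rps27rt held 5140, 798 and 5979 reads in Ctrl and 4417, 4692 and 1613 in cKO. The same Ctrl 2 and cKO 3 were here high for Rps27 and low for Rps27rt, and the ratio went from 2.18 to 1.35. Rpl30 held 5064, 3311 and 3487 reads in Ctrl and 3220, 5728 and 2729 in cKO, while Gm12191 held 60, 1507 and 1506 in Ctrl and 1249, 133 and 796 in cKO. Ctrl 1 and cKO 2, the libraries with the most Rpl30 reads, had the fewest on Gm12191, and the ratio went from 1.78 to 1.41.

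**Figure D4:**
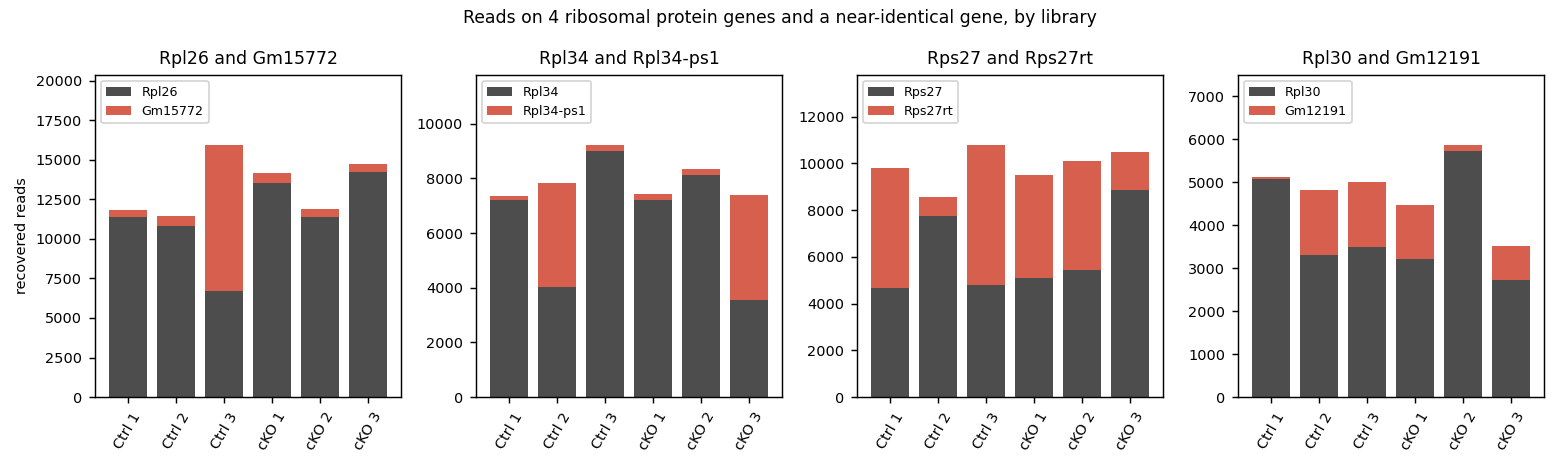
Recovered reads on 4 ribosomal protein genes (grey) and on a near-identical gene (red, stacked) in each of the 6 libraries. The stacked totals vary less than the grey parts, as for Rpl34, whose grey bars run from 3553 to 8993 reads.

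Adding copies did not level every member. Rps27a, whose product is ubiquitin fused to a ribosomal protein, was at 341, 316 and 97.1 FPKM in Ctrl and 358, 274 and 163 FPKM in cKO. It was low in Ctrl 3 and cKO 3, and its ratio of highest to lowest library was 3.51 alone and 3.09 with copies. The ratios of Rpl38 and Rpl28 were 3.35 and 2.86 alone and 3.38 and 2.89 with copies. Over all members the ratio was smaller with copies for 51 and larger for 17, the median going from 1.47 to 1.42, and the members above 1.5 fell from 39 to 34. With copies added 0 members passed an unadjusted p below 0.05 in either direction, beside 4.48% of all genes, and the median log2 fold change was -0.01.

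The paralogues named with a final l are given beside the germ-cell markers. Rpl39 (chrX:37082520-37085402, minus strand) and Rpl39l (chr16:10170226-10174911, plus strand) are shown over their whole coding sequence, from start to stop codon, because, unlike the pairs above, they differ throughout: the 23 mismatches in capitals are spread over 156 bases (85.3% identity), and the longest identical stretch is 38 bases.
Rpl39: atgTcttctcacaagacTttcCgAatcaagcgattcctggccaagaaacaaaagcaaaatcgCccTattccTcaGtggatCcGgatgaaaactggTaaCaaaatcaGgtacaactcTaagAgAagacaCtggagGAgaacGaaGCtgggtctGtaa
Rpl39l: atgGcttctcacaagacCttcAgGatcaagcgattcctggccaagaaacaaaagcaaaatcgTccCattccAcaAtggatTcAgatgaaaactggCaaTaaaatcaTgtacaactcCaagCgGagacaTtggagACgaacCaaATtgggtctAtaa

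Rpl39l was at 1.85, 7.51 and 9.16 FPKM in Ctrl and 5.45, 4.45 and 6.10 FPKM in cKO. Rpl10l, the paralogue of Rpl10 with 84.8% coding identity, was at 2.48, 10.5 and 13.4 FPKM in Ctrl and 11.1, 4.78 and 12.5 FPKM in cKO. Both were lowest in Ctrl 1 and next lowest in cKO 2, and the parent Rpl10 was also lowest in Ctrl 1. The germ-cell marker Ddx4, an RNA helicase, was at 13.1, 31.5 and 49.0 FPKM in Ctrl and 51.9, 20.2 and 55.1 FPKM in cKO. Sycp3, a component of the synaptonemal complex, was at 29.1, 59.3 and 110.4 FPKM in Ctrl and 89.998, 39.0 and 115 FPKM in cKO. Ctrl 1 and cKO 2 were the lowest libraries for these markers and for the sum of all 4, but Dazl was lowest in Ctrl 1 and Ctrl 2 (23.0 and 39.1 FPKM) and Dppa3 in Ctrl 2 and Ctrl 1 (0.138 and 0.897 FPKM). The part of germ-cell content in the paralogues was not tested. The log2 differences of Rpl39l and Rpl10l were 0.01 ± 0.46 and 0.24 ± 0.58 (SE; limma p = 0.989 and 0.694, exact permutation p = 1.0 and 0.8). Without Ctrl 1 the difference of Rpl39l was -0.56 and passed an unadjusted p below 0.05, beside 3.64% of all genes, with both remaining Ctrl libraries above all cKO libraries.

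Rps27l, the paralogue of Rps27 and a p53 target, was at 84.2, 89.4 and 93.3 FPKM in Ctrl and 121, 89.7 and 128 FPKM in cKO. Of the cKO libraries cKO 1 and cKO 3 lay above all Ctrl libraries, and cKO 2 lay within them. The log2 difference was 0.33 ± 0.16 (SE; limma p = 0.085, exact permutation p = 0.2), and without cKO 2 it was 0.48 and passed an unadjusted p below 0.05, as did 14.5% of all genes without that library. The germ-cell marker Dazl, at 23.0 to 80.005 FPKM in Ctrl, was at 169 and 219 FPKM in cKO 1 and cKO 3 and at 56.8 FPKM in cKO 2. Among the other germ-cell markers, Ddx4 in cKO 1 was only slightly above its highest Ctrl library, and Sycp3 in cKO 1 was below its own. Dppa3 was higher in every cKO library, cKO 2 included, than in every Ctrl library. A link between Rps27l and germ-cell content was not tested.

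**Figure D5:**
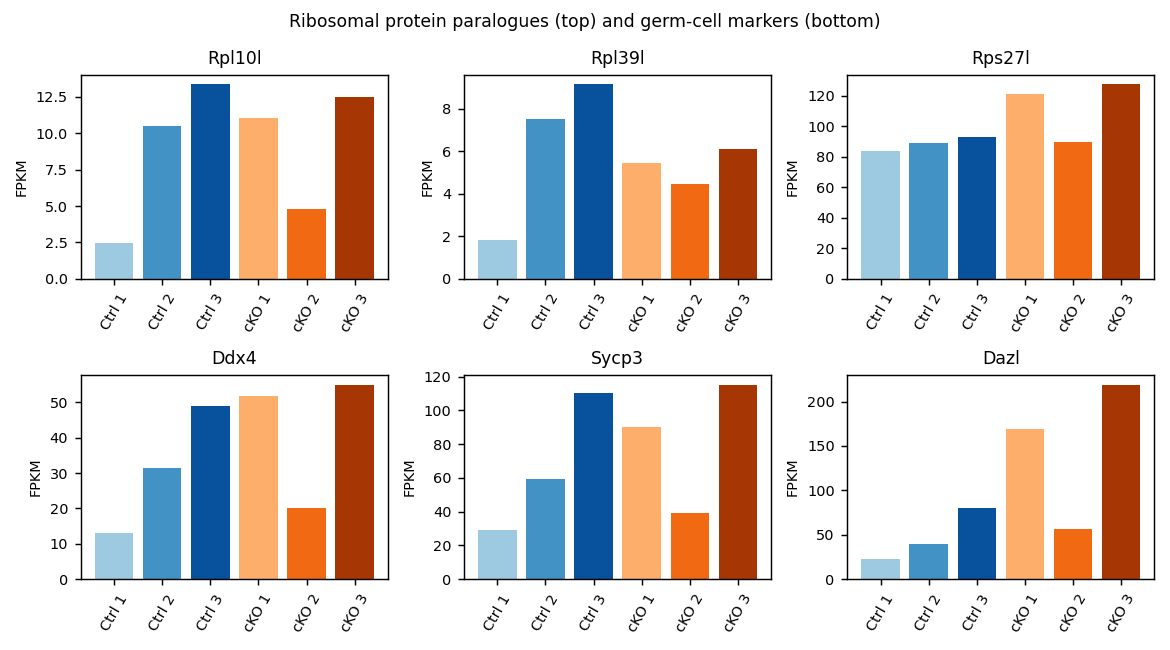
FPKM by library of the paralogues Rpl10l, Rpl39l and Rps27l (top row) and of the germ-cell markers Ddx4, Sycp3 and Dazl (bottom row), each panel with its own axis from 0. Ctrl 1 is the lowest library in all 6 panels, and cKO 2 is the lowest cKO library in all 6.

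The other genes of the translation apparatus were counted from fixed lists. Of 15 genes for elongation and poly(A) binding with TOP mRNAs, 0 passed an unadjusted p below 0.05. The one with the smallest p was Pabpc1, the cytoplasmic poly(A)-binding protein, at 157 to 192 FPKM in Ctrl and 129.9, 114 and 161 FPKM in cKO (log2 difference -0.36, limma p = 0.0677, exact permutation p = 0.2). Of 15 genes that control TOP mRNAs 0 passed, and Larp4 was nearest, at 8.62 to 10.6 FPKM in Ctrl and 18.9, 9.63 and 17.97 FPKM in cKO (log2 difference 0.57, limma p = 0.0584, exact permutation p = 0.3). Of 19 genes of RNA polymerase I and III transcription 0 passed, and of 8 tested chaperones of ribosomal proteins 0 passed. Among 8 ribosomal protein genes outside the naming rule, such as Rack1, 0 passed.

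Of 47 ribosome biogenesis genes tested, 1 was higher and 1 lower in cKO (4.26%, beside 4.43% of all genes). Ltv1, a factor of small subunit maturation, was at 18.4, 22.3 and 31.3 FPKM in Ctrl and 55.4, 27.7 and 58.9 FPKM in cKO (log2 difference 0.91, limma p = 0.0267, exact permutation p = 0.2). The value in cKO 2 lay within the Ctrl range, as for Rps27l and the germ-cell markers Dazl, Ddx4 and Sycp3. The remaining germ-cell marker, Dppa3, was higher in every cKO library, cKO 2 included, than in every Ctrl library. A link between Ltv1 and germ-cell content was not tested. Dkc1, the pseudouridine synthase dyskerin, was at 15.5, 17.7 and 16.6 FPKM in Ctrl and 14.7, 12.6 and 11.4 FPKM in cKO (log2 difference -0.35, limma p = 0.034, exact permutation p = 0.1), and the groups did not overlap. Of 77 mitochondrial ribosomal protein genes tested, 3 were higher and 0 lower (3.9%). Mrps16 was at 11.1 to 11.5 FPKM in Ctrl and 13.6 to 14.1 FPKM in cKO (log2 difference 0.27, limma p = 0.0309, exact permutation p = 0.1). Mrpl17 was at 7.73 to 9.30 FPKM in Ctrl and 10.1 to 13.2 FPKM in cKO (log2 difference 0.38, limma p = 0.0314, exact permutation p = 0.1). Mrpl45 was at 16.1 to 19.2 FPKM in Ctrl and 20.6 to 22.4 FPKM in cKO (log2 difference 0.29, limma p = 0.0399, exact permutation p = 0.1). In these 3 genes the groups did not overlap. Over the 77 mitochondrial ribosomal protein genes they were separate for 8, with 8 higher and 0 lower in cKO. Over the 47 ribosome biogenesis genes they were separate for 4, with 2 higher and 2 lower. Over all genes tested the shares were 4.59% higher and 4.1% lower. No gene of these lists passed an adjusted p below 0.05.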

How the data were processed

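RNA of whole ovaries was sequenced as 150 bp read pairs from poly(A)-selected libraries. The authors used HISAT2 2.0.5 (per the submitters' processing notes) against GRCm38 (mm10) and featureCounts, and the deposited values are FPKM, counts divided by gene length and library size. How strand and reads matching several places were treated is not stated in the sources used here. The extraction text of the labels mentions another tissue, but ovary is given as the tissue and by the paper.

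Groups and replicate numbers came from the labels. Differences between cKO and Ctrl were tested in R 4.3.3 by limma 3.58.1, using log2(FPKM + 1), an intensity trend and the 17180 genes whose mean FPKM reached 0.5, and p-values were adjusted by Benjamini-Hochberg; fold changes are on this scale. The fit was tested on simulated data. FPKM times gene length gave whole reads for 100.0% of values within 0.05, which limma voom used as an alternative. Intervals cover 95%. For named genes a two-sided exact permutation test over the 6 libraries was added. Copies and exon overlaps came from GENCODE M21 and start sites from RefSeq. Named genes were the stalk proteins and Rpsa, X-linked genes, paralogues with their parents, the 5 highest and lowest by level, the 5 with the largest change or else the smallest p in each direction, members with other roles, and up to 4 per other list. Members and lists were chosen with earlier results of these data known.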

Additional observations from a re-analysis of the deposited data

How the results depend on the processing

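The count of members higher in cKO at an unadjusted p below 0.05, 1 as reported, was 0 with no minimum FPKM, without the intensity trend, with the replicate block and with copies added, the last chosen after seeing the data. Leaving out single libraries gave 0 to 2 higher and 0 to 2 lower: 1 lower (Rpl39l) without Ctrl 1, 1 lower (Rpl7a) without Ctrl 2, 1 lower (Rpl21) without Ctrl 3, 0 without cKO 1, 2 of each without cKO 2 (Rps15a and Rps27l higher, Rpl15 and Rpl35a lower), and 1 higher (Rpl13a) without cKO 3. Members past an adjusted p below 0.05 were 0 under every setting run. Over all genes, 460 higher and 301 lower became 736 and 595 with no minimum FPKM, and 201 to 1457 higher and 163 to 1036 lower on leaving out single libraries, the highest without cKO 2. The difference of Rpl39l, 0.01 with all libraries, ranged from -0.56 (without Ctrl 1) to 0.36 (without Ctrl 3).

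The share of members was 4.73%, 5.08% and 4.88% in Ctrl and 4.95%, 5.12% and 4.32% in cKO by reads, and without the 5 highest members 6.80%, 7.97%, 7.44%, 7.61%, 7.61% and 6.79% by FPKM. Their median log2 fold change stayed between -0.09 and 0.05 under all settings. Same-numbered libraries did not deviate together (correlations -0.39, -0.03 and 0.12), nor did each correlate best with its own number, so the block was not taken as a pairing. The causes of these shifts were not tested. With 3 libraries a group, the 95% interval of the median member reached 0.42 to either side on the log2 scale.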

Other observations

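Other members had pseudogenes whose reads varied between libraries. Gm8730, a processed pseudogene with 98.7% identity to the coding sequence of Rplp0, held 96, 69 and 1891 reads in Ctrl and 2343, 67 and 2196 in cKO, and the 3 libraries with many reads on it, Ctrl 3, cKO 1 and cKO 3, were the 3 with the lowest FPKM of Rplp0. Adding the copies changed the ratio of highest to lowest library of Rplp0 from 1.43 to 1.29. Rpl3-ps1, with 99.8% identity to Rpl3, held 1197, 3727 and 3841 reads in Ctrl and 1243, 1690 and 2716 in cKO. Rpl17 had 16 copies, which together held 42.7% to 64.9% of the reads on the gene and its copies. For Rpl21, with 37 copies, this share was 57.4% to 72.1%, and Rpl21 itself was at 31.0, 27.9 and 12.7 FPKM in Ctrl and 11.9, 25.5 and 14.003 FPKM in cKO. These genes were chosen after their values were seen.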
